A study of Paxillus involutus with 18 samples.

Results

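The response of the ectomycorrhizal fungus *Pa. involutus* to organic matter of a spruce forest was examined by comparing mycelium held in a hot-water extract of forest litter (FH) with mycelium kept in the mineral medium MMN. The comparison used 6 of the 18 NimbleGen arrays of the series, 3 FH arrays and the 3 MMN arrays of the same slide, and all 12214 isotigs on the array. An isotig is a transcript assembled from sequencing reads, and isotigs of one gene can be splice variants of each other. The wild-type strain ATCC 200175 was grown on glass beads in MMN for 9 days and then without N for 24 h. For the last 7 days the FH cultures stood in litter extract, freed of particles above 0.2 µm and of compounds under 10 kDa, while the MMN cultures went on in fresh mineral medium. Both media held glucose. MMN also held ammonium, phosphate, other mineral salts with iron, and thiamine, whereas the extract brought its own organic matter, N and minerals, so the media differed in more than the litter polymers. The other arrays carried mycelium on hot-water (MH) or cold-water (MC) extracts of maize compost, on carboxy methyl cellulose (CMC) or on MMN on a second slide, 3 arrays each. One MC array is described as MH in 1 of its labels and was kept as MC, as its title, source and medium say. The labels call the replicates biological without saying at which step the cultures were separated, so the p-values speak only for variation among these arrays, which may be technical. The strain is 1 isolate, and the organic matter was dissolved and not intact litter.

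Ectomycorrhizal fungi live on sugar from the roots of trees and return nutrients, above all N, to them. In boreal litter much of that N is bound in complexes of protein with polyphenols. Brown-rot fungi, the wood decayers to which this species is related, open such polymers with hydroxyl radicals made from ferrous iron and hydrogen peroxide, the Fenton reaction, and oxidases that act on phenols are often expressed alongside. Tyrosinases, laccases, peroxidases, cytochrome P450 monooxygenases and iron-handling proteins are therefore the enzyme groups of interest on litter. Isotigs carry only numbers in the files. Enzyme names are those of the study, which had chosen the isotigs for rises on these arrays, so their direction is not independent evidence. Such names were at hand for 28 isotigs, which are only a part of the study's list. The sequences of the isotigs were not at hand and none is shown.

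Each array gave a single value for an isotig, a log2 expression level that the authors made by robust multi-array average (RMA). Over the 6 arrays the medians lay between 11.46 and 11.47 and the 10000 random control probes averaged 3.76 to 3.82. The largest isotig value was 15.28, under the limit of 16 that a 16-bit image sets. Read as natural logarithms, 65.4% to 66.3% of the isotigs of an array would lie above that limit, so the values were taken as log2. Replicate arrays were close, with the lowest Pearson r across isotigs 0.997 among FH arrays and 0.996 among MMN arrays. The median SD of an isotig was 0.07 on FH and 0.08 on MMN, on the log2 scale. FH and MMN sat at different positions of the slide, and position and medium cannot be told apart. A limma model with a mean for each medium on each slide was fitted over 18 arrays, and an isotig was called where the Benjamini-Hochberg adjusted p over all isotigs was under 0.01 and the difference was over 2-fold, the thresholds of the study.

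Growth on the litter extract shifted many isotigs by small amounts and few by over 2-fold. Changes over 2-fold were mostly rises, and those over 4-fold mostly falls. At an adjusted p under 0.01 alone, 2014 isotigs (16.5%) were higher on FH and 2065 (16.9%) were lower. That balance depended on the fit and on single arrays: 1750 were higher and 1306 lower with slide 1 alone, 1658 and 1248 without MMN replicate 1, 1582 and 1290 without MMN replicate 2, and 1615 and 1237 without FH replicate 1. With the 2-fold threshold 118 isotigs (0.966%) were called higher and 37 (0.303%) lower. Between 1.5-fold and 2-fold, 426 isotigs that passed the p were higher and 75 lower. Of the isotigs that passed the p, 83.9% had changed by less than 1.5-fold. The median difference of the higher ones was 0.41 and that of the lower ones -0.29 on the log2 scale. Over all 12214 isotigs the median difference was -0.06, the quartiles were -0.19 and 0.14, and 41.3% of the differences were above 0 and 58.7% below. RMA brings all arrays to 1 distribution, so every change is relative to the other isotigs. For 11922 isotigs (97.6%) the 95% confidence interval of the difference lay inside 2-fold either way, and no isotig beyond 2-fold missed the p.

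**Figure D1:**
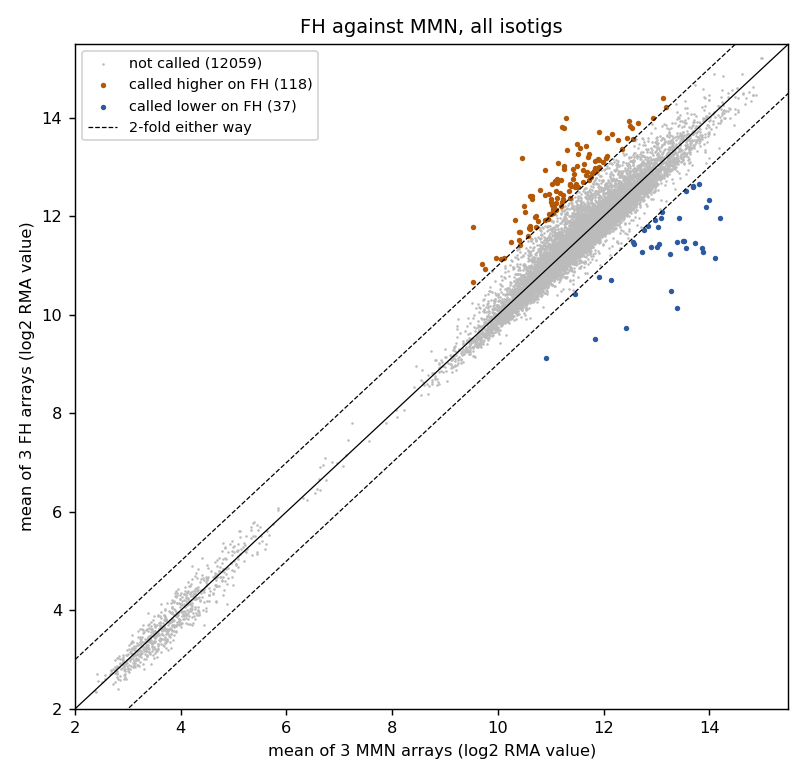
Mean log2 RMA value of each of 12214 isotigs on the 3 FH arrays (vertical axis) against the 3 MMN arrays (horizontal axis), with the 118 isotigs called higher on FH in brown and the 37 called lower in blue. The rises lie as a dense band just above the 2-fold line, while several falls lie far below it.

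The falls were fewer but larger. Their median was -1.62 on the log2 scale, against 1.26 for the rises, and 13 of 37 falls were over 4-fold, against 7 of 118 rises. Only 1 isotig changed by over 8-fold, and it fell. In all 155 called isotigs the 3 FH arrays lay wholly beyond the 3 MMN arrays, which held upward for 23.0% and downward for 33.0% of all isotigs. The gap between the nearest FH and MMN arrays was at least 0.62 for the rises and 0.78 for the falls, and it exceeded 1 for 59 of the rises and 26 of the falls. The interval of the difference lay wholly beyond 2-fold for 65 rises and 24 falls, so the other calls stand close to the threshold. No called isotig was near background. The lowest MMN mean of a called rise was 9.52 and the lowest FH mean of a called fall was 9.13, and of the 587 isotigs that stayed within 1 log2 unit above the random controls or lower on all MMN arrays, none was called higher.

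Of the 28 isotigs with an enzyme name, 10 were called higher, against 0.966% of all isotigs, and none lower. At the adjusted p alone 22 were higher, against 16.5% of all isotigs. Over the 28 isotigs the median log2 difference was 0.74, against -0.06 over all isotigs. These shares describe a list chosen for rises and test nothing. The remaining 6 also had positive values: tyrosinase paxillus_984, the aromatic peroxygenase, the 3 cytochrome P450 monooxygenases and siderophore isotig paxillus_6835. On 26 of the 28 all FH arrays lay above all MMN arrays, against 23.0% of all isotigs.

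**Figure D2:**
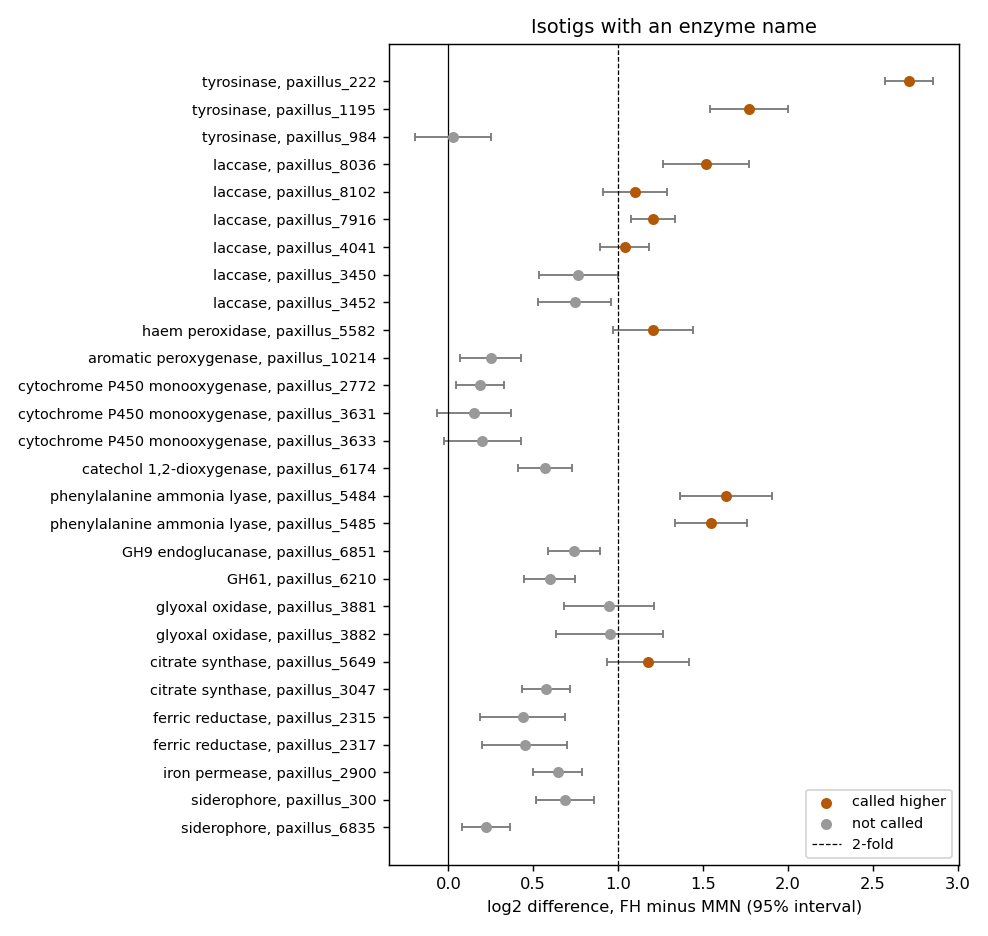
Log2 difference of FH from MMN (horizontal axis) for the 28 isotigs with an enzyme name, with 95% confidence intervals from the limma fit. The 10 called higher are in brown, led by tyrosinase paxillus_222 at 2.71, and the intervals of paxillus_984, paxillus_3631 and paxillus_3633 include 0.

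Tyrosinases oxidise phenols to quinones and take part in pigment synthesis. Tyrosinase paxillus_222 had values of 13.99, 13.97 and 14.03 on FH and of 11.28, 11.29 and 11.30 on MMN. The arrays of each medium lay within 0.1 of each other, and FH was 6.55-fold higher (95% interval on the log2 scale 2.57 to 2.85). Tyrosinase paxillus_1195 had values of 13.32, 12.81 and 12.91 on FH and of 11.32, 11.34 and 11.07 on MMN. Here FH replicate 1 stood above its partners, and the groups were still more than a log2 unit apart (3.41-fold, adjusted p = 1.2e-09). Tyrosinase paxillus_984 gave no such gap, with 11.42, 11.29 and 11.14 on FH and 11.28, 11.33 and 11.17 on MMN. Its groups overlapped, its difference was 0.03 (adjusted p = 0.85), with an interval of -0.20 to 0.25. Within the same family and the same cultures, then, the changes ran from 0.03 to 2.71 on the log2 scale.

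Laccases, multicopper oxidases that take electrons from phenols, rose at an adjusted p under 0.01 in all 6 isotigs at hand, and 4 of them were called. Over all isotigs 16.5% were higher at that p and 0.966% were called higher. The 6 belong to the list chosen for rises, so the counts are a description. Laccase paxillus_8036 measured 13.11, 12.94 and 12.99 on FH and 11.43, 11.26 and 11.80 on MMN, with MMN replicate 3 nearest to FH (log2 difference 1.52, standard error 0.12). Laccase paxillus_7916 measured 11.10, 11.16 and 11.23 on FH and 9.92, 10.02 and 9.94 on MMN, which is 2.31-fold with all arrays of a group close together. The values of laccase paxillus_8102 were 12.94, 12.89 and 12.83 on FH and 11.64, 11.85 and 11.88 on MMN. Laccase paxillus_4041 lay at 11.91, 12.04 and 11.82 on FH and at 10.76, 10.92 and 10.98 on MMN, which is 2.05-fold. The call stood at the threshold: the log2 difference was 1.04, and it fell just short of 2-fold at 0.97 without MMN replicate 1 and 0.98 without FH replicate 2. It was 0.57 with the MMN arrays of the other slide as the control. Laccases paxillus_3450 and paxillus_3452 were 1.70-fold and 1.67-fold higher, and in both FH replicate 1, at 12.86 and 12.92, stood above the other FH arrays.

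Haem peroxidase paxillus_5582, of a family that oxidises substrates with hydrogen peroxide, had values of 12.21, 12.35 and 12.14 on FH and of 10.88, 11.01 and 11.19 on MMN (log2 difference 1.20, adjusted p = 1.7e-07). Cytochrome P450 monooxygenases add oxygen to small molecules inside the cell. The paper reports a raised transcript of this kind in all media. The 3 isotigs at hand do not stand for the whole family, and they stayed almost level on FH. Their log2 differences were 0.19 for paxillus_2772, 0.15 for paxillus_3631 and 0.20 for paxillus_3633. None passed the adjusted p in limma (1 of 3, paxillus_2772, had an unadjusted p under 0.05). The upper ends of their intervals were 0.33, 0.37 and 0.42, so a 2-fold rise of any of them on FH lies outside the interval. The aromatic peroxygenase paxillus_10214 was alike in size, at 0.25 with an upper end of 0.43. Catechol 1,2-dioxygenase cleaves the aromatic ring between its hydroxyl groups. Its isotig paxillus_6174 was 1.49-fold higher (adjusted p = 1.3e-05) with values of 12.56, 12.29 and 12.52 on FH and 12.01, 11.76 and 11.89 on MMN.

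Phenylalanine ammonia lyase removes ammonia from phenylalanine and feeds the synthesis of phenolic compounds. Its isotig paxillus_5484 measured 12.88, 12.72 and 12.68 on FH and 11.00, 11.12 and 11.25 on MMN. The neighbouring isotig paxillus_5485 measured 12.81, 12.57 and 12.61 on FH and 11.13, 10.98 and 11.25 on MMN. Both were close to 3-fold higher, at 3.11-fold and 2.92-fold, with no overlap between the media.

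Of enzymes that act on cellulose, 2 isotigs were at hand and neither was called. Both were higher at the adjusted p under 0.01 in limma, against 16.5% of all isotigs, in a list chosen for rises. The paper reports a significantly raised GH9 endoglucanase transcript in all media, and that statement names no fold threshold. Endoglucanases cut within the chain, and the one of family GH9, paxillus_6851, had values of 10.86, 10.86 and 10.65 on FH and of 9.99, 10.10 and 10.06 on MMN, a 1.67-fold difference. GH61 proteins attack the polymer by oxidation, and paxillus_6210 had values of 12.18, 11.98 and 11.96 on FH and of 11.44, 11.36 and 11.52 on MMN, a 1.51-fold difference. Both intervals, of 0.58 to 0.89 and of 0.45 to 0.75 on the log2 scale, lay between no change and 2-fold.

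Glyoxal oxidases make hydrogen peroxide from small aldehydes. Isotig paxillus_3881 lay at 13.54, 13.58 and 13.51 on FH and at 12.59, 12.35 and 12.85 on MMN, and paxillus_3882 at 13.67, 13.50 and 13.52 on FH and at 12.71, 12.21 and 12.92 on MMN. The FH arrays agree within 0.2 while the MMN arrays are spread over 0.5 or more, and the differences, 1.92-fold and 1.93-fold, fell just short of the threshold. Without MMN replicate 3 both isotigs passed 2-fold, with log2 differences of 1.07 and 1.10. With the MMN arrays of the other slide as the control the differences were 1.21 and 1.08. The paper reports a significantly raised glyoxal oxidase transcript in all media, again without a fold threshold in that statement. Citrate synthase joins acetyl-CoA and oxaloacetate to citrate, an acid that can bind iron. Its isotig paxillus_5649 had values of 12.18, 12.38 and 12.26 on FH and of 11.00, 10.89 and 11.41 on MMN and was 2.26-fold higher (adjusted p = 3.1e-07). Citrate synthase paxillus_3047 had values of 12.85, 12.88 and 12.85 on FH and of 12.26, 12.28 and 12.31 on MMN. Although only 1.49-fold, that difference stood far outside the SDs of 0.02 on FH and 0.03 on MMN. For this isotig the SD was 0.09 on MMN of the other slide, 0.06 on MH, 0.17 on MC and 0.02 on CMC. The standard error of the fit was 0.07.

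Among the 5 isotigs of iron uptake and reduction none was called in limma. At the adjusted p under 0.01 alone 4 were higher, against 16.5% of all isotigs, in a list chosen for rises. Iron permease paxillus_2900, a plasma membrane transporter, had values of 11.98, 12.07 and 12.00 on FH and of 11.33, 11.34 and 11.44 on MMN (1.56-fold, adjusted p = 8.5e-07). Siderophore isotig paxillus_300, named for the small molecules that bind ferric iron, lay at 12.44, 12.49 and 12.35 on FH and at 11.60, 11.68 and 11.94 on MMN (1.61-fold). Siderophore isotig paxillus_6835 was 1.16-fold higher and missed the threshold (adjusted p = 0.013). The ferric reductases, which turn ferric into ferrous iron, had log2 differences of 0.44 for paxillus_2315 (adjusted p = 0.0063) and 0.45 for paxillus_2317 (adjusted p = 0.0053). Their MMN arrays ran from 12.86 to 13.34 and from 12.88 to 13.34, and in both MMN replicate 2 was the lowest array.

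Most of the largest rises on FH had no name at hand. Of the 12 largest, paxillus_222 alone had one. Isotig paxillus_10 rose most, with values of 13.16, 13.33 and 13.09 on FH and of 10.40, 10.26 and 10.73 on MMN (6.64-fold, adjusted p = 1.1e-10). Isotig paxillus_558 followed the tyrosinase with 13.74, 13.81 and 13.90 on FH and 11.29, 11.23 and 11.10 on MMN (6.11-fold). Isotig paxillus_4580 had nearly the same levels, at 13.81, 13.76 and 13.80 on FH and 11.29, 11.31 and 11.15 on MMN (5.82-fold). In these isotigs the arrays of a medium differed by less than 0.5 and the media by more than 2 log2 units. Isotig paxillus_316 had the widest spread among the 12, since MMN replicate 3, at 10.03, stood well above the other MMN arrays, at 9.30 and 9.24, with FH at 11.83, 11.87 and 11.67 (4.81-fold). The others, paxillus_5757, paxillus_3370, paxillus_5854, paxillus_4034, paxillus_4036, paxillus_4960 and paxillus_5349, had log2 differences of 2.04, 2.04, 1.98, 1.93, 1.83, 1.80 and 1.79, with standard errors of 0.06 to 0.10.

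**Figure D3:**
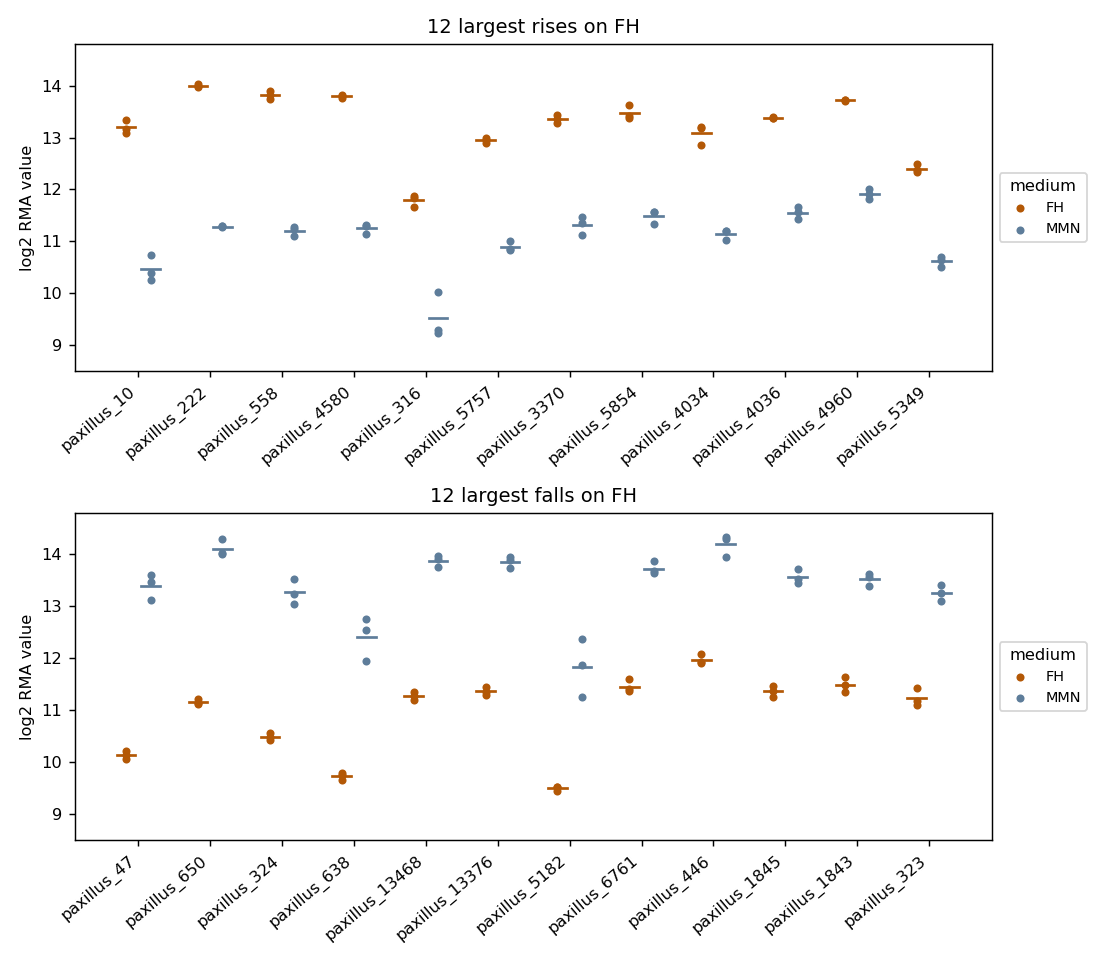
Log2 RMA values of single arrays for the 12 largest rises (upper panel) and the 12 largest falls (lower panel), with the 3 FH arrays left of the 3 MMN arrays and a bar at each mean. No FH array overlaps an MMN array in any of the 24 isotigs, and the widest spread is that of paxillus_5182 on MMN.

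The deepest fall was that of paxillus_47, with values of 10.14, 10.06 and 10.21 on FH and of 13.13, 13.60 and 13.47 on MMN, which is 9.57-fold lower on FH (adjusted p = 1.5e-13). Isotig paxillus_650 had 11.15, 11.11 and 11.22 on FH and 14.02, 14.31 and 14.02 on MMN, 7.75-fold lower on FH. Isotig paxillus_13468 combined a deep fall with close replicates, at 11.28, 11.36 and 11.20 on FH and 13.76, 13.96 and 13.92 on MMN, and had the smallest adjusted p among the falls together with paxillus_13376 (5.3e-15 for both). Even these fallen isotigs kept levels on FH several log2 units above the random controls. Isotig paxillus_5182 lay at 9.52, 9.45 and 9.52 on FH but at 11.25, 12.37 and 11.87 on MMN, and paxillus_638 at 9.80, 9.76 and 9.66 on FH but at 11.96, 12.76 and 12.54 on MMN. In both the MMN cultures varied by 0.8 or more and MMN replicate 1 was lowest. The fit pools the spread of all media, so the standard errors of 0.19 and 0.17 do not fully carry that unequal spread. The other large falls were those of paxillus_324, paxillus_6761, paxillus_446, paxillus_1845, paxillus_1843 and paxillus_323, with log2 differences of -2.78, -2.27, -2.22, -2.20, -2.04 and -2.03.

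The uneven spread followed a pattern among the MMN cultures. In 111 of the 155 called isotigs the SD was larger on MMN than on FH, and in 54.3% of all isotigs. The median SD of the called isotigs was 0.08 on FH and 0.14 on MMN. Of the 118 rises, MMN replicate 3 was the MMN array nearest to the FH mean in 85 (72.0%), and on the other slide the MMN array of the same number was nearest in 85 as well. Over all isotigs the share of MMN replicate 3 was 49.3%. Of the 37 falls, MMN replicate 1 was the nearest in 26 (70.3%), on either slide, against 25.9% of all isotigs on slide 1. MMN replicate numbers recur on the other slide, and the paired deviations from the group mean correlated at 0.26, 0.45 and 0.49 across isotigs by number, so the MMN arrays of the other slide were not counted as further replicates of the control mean. They did enter the estimate of the spread as separate arrays, and with slide 1 alone the same 118 rises and 37 falls were called. Without MMN replicate 3, 144 isotigs were called higher and 12 of the 28 named enzymes, against 118 and 10 with it.

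Whether a change belonged to litter or also appeared on other media was tested by the difference between FH and MH, which share a slide, and by the difference of changes between FH and the media of the other slide. These contrasts use the same FH arrays as the calls above, and each medium is set against the MMN arrays of its own slide. The rises were called for high values on FH, so an excess of them above another medium is partly fixed by that choice. Their counts below are a description. FH and MH thus share MMN arrays, and whether the MMN arrays of both slides came from the same cultures is not stated in the labels. Between FH and MH, 45 of 12214 isotigs were called higher on FH (0.368%) and 90 lower (0.737%). Of the 118 rises on FH, 9 were called higher than on MH and 5 lower. The change on FH was called above that on MC for 75 isotigs (0.614%) and below it for 96 (0.786%), and of the 118 rises 17 were above and 3 below. For CMC the numbers were 23 (0.188%) and 6 (0.0491%), and 12 and 0 of the 118 rises. Without the MC array whose labels disagree, MC replicate 3, the change on FH was called above that on MC for 71 isotigs and below it for 84.

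Of the isotigs called on FH, 7 differed from all the other media in the same direction, upwards. The rises among them were paxillus_558, paxillus_4580, paxillus_5854, paxillus_4034, paxillus_4036 and paxillus_3701, and the remaining one, paxillus_751, fell on FH by less than elsewhere. Isotig paxillus_558 had a log2 change of 2.61 on FH, 0.56 on MH, -0.04 on MC and 1.03 on CMC. Isotig paxillus_4580 followed it closely in each medium, with 2.54, 0.68, 0.03 and 1.02. Their numbers are far apart and whether they belong to 1 gene was not examined. The difference of paxillus_558 from MH was 2.05 (adjusted p = 1.4e-12), and that of paxillus_4580 was 1.86 (adjusted p = 1.5e-12). Isotig paxillus_3701 measured 12.45, 12.20 and 12.43 on FH, 10.94, 11.11 and 11.04 on MH and 10.70, 10.71 and 10.56 on MMN of the same slide, so the litter extract stood alone and MH lay a little above MMN.

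Isotigs paxillus_4034 and paxillus_4036 rose on litter and fell on compost. Isotig paxillus_4034 measured 13.17, 13.20 and 12.86 on FH, 10.60, 10.49 and 10.26 on MH and 11.03, 11.21 and 11.20 on MMN. All MH arrays lay below all MMN arrays, and all FH arrays above. Its log2 change was 1.93 on FH, -0.69 on MH (adjusted p = 5.2e-06), -0.59 on MC (adjusted p = 6.6e-05) and 0.15 on CMC. For paxillus_4036 the changes were 1.83, -0.72, -0.56 and 0.14. The adjacent isotigs paxillus_5070 and paxillus_5071 had the same signs on the extracts, with 1.11 and 1.21 on FH, -0.92 and -0.93 on MH and -0.73 and -0.77 on MC, but on CMC they were higher than on MMN, by 0.80 and 0.75. These 4 were the only isotigs called higher on FH that fell on MH at an adjusted p under 0.01.

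On MC, 7 isotigs called higher on FH fell at that p. Besides those 4 they were paxillus_5854, paxillus_5855 and paxillus_7788. The adjacent isotigs paxillus_5854 and paxillus_5855 had log2 changes of 1.98 and 1.76 on FH, 0.84 and 0.76 on MH, -0.98 and -0.85 on MC, and 0.53 and 0.51 on CMC, so MC was the only medium on which they were lower than on MMN. Isotig paxillus_7788 had 1.16 on FH and -0.34 on MC. On CMC 1 isotig did so, paxillus_12937, with 14.37, 14.52 and 14.29 on FH against 13.05, 13.28 and 13.07 on MMN, a change of 1.26 on FH and of -0.68 on CMC. No isotig called lower on FH rose at that p on any of the other media. The shares of all isotigs that fell or rose at that p on MH, MC and CMC are not given, so these counts are only a description. Isotigs paxillus_5070, paxillus_5855, paxillus_7788, paxillus_12937 and paxillus_751 were chosen after their values were seen.

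**Figure D4:**
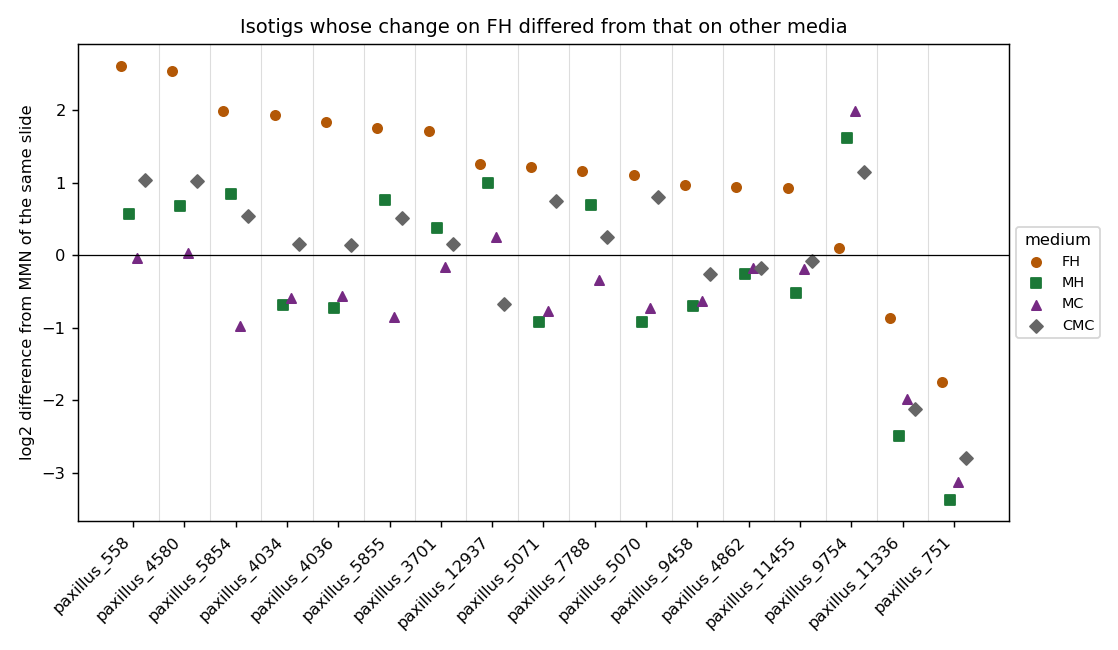
Log2 difference from the MMN arrays of the same slide (vertical axis) on FH, MH, MC and CMC, in that order from left to right, for 17 isotigs that differed on FH from all the other media or rose on FH and fell elsewhere. Isotigs paxillus_4034 and paxillus_4036 lie near 2 on FH and below 0 on both compost extracts, and paxillus_9754 lies near 0 on FH alone.

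Across all isotigs, 11 lay above all the other media and 1 below. The 1 below was paxillus_9754, with values of 11.89, 11.87 and 11.81 on FH, 13.34, 13.43 and 13.31 on MH and 11.62, 11.78 and 11.87 on MMN. FH and MMN overlapped (log2 difference 0.10, adjusted p = 0.25), while its change was 1.61 on MH, 1.98 on MC and 1.14 on CMC. Those above but not called against MMN were paxillus_9458, paxillus_4862 and paxillus_11455, with changes of 0.97, 0.94 and 0.93 on FH, and paxillus_11336, which changed by -0.86 on FH and by -2.50 on MH. These were likewise chosen after their values were seen.

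The extremes of the FH response also changed on the other media. Isotig paxillus_10, the largest rise, changed by 2.73 on FH, 3.22 on MH, 3.24 on MC and 3.10 on CMC on the log2 scale. It was lower on FH than on MH by a log2 difference of -0.49 (adjusted p = 0.0059). Isotig paxillus_47, the deepest fall, changed by -3.26 on FH, -3.45 on MH, -3.32 on MC and -3.28 on CMC. None of the differences of paxillus_47 between FH and another medium passed the test.

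Among the rises that FH shared with compost, some were smaller on FH. Isotig paxillus_9966 measured 11.13, 10.87 and 11.10 on FH and 9.74, 9.75 and 9.58 on MMN, a log2 change of 1.34, against 2.64 on MH and 3.49 on MC. Isotig paxillus_5498 changed by 1.01 on FH and 2.25 on MH, a difference of -1.24 (adjusted p = 1.6e-09). Its change on FH stood at the threshold, and at 0.91 without MMN replicate 2 and 0.96 without FH replicate 1 it was no longer called, while that of paxillus_9966 ended with the MMN arrays of the other slide as the control. Among the falls, paxillus_8833 was 2.22-fold lower on FH and changed by -0.05 on MH, -0.07 on MC and -0.83 on CMC. Isotig paxillus_13376 fell by 2.50 on FH and by 1.45 on MH on the log2 scale (difference -1.05, adjusted p = 4.9e-10). With repeated quantile normalization that difference was -0.998 and no longer called. Isotigs paxillus_6761 and paxillus_446 fell on FH by 2.27 and 2.22 and on CMC by 0.72 and 0.59, and both differences of changes were called.

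The study's choice of these enzymes drew on rises on any of the extracts, and 13 of the 28 were not called on FH but were called higher on MH or MC. An excess of lower values on FH than on MH is therefore partly fixed by the choice, and the counts are a description. Of the 28 isotigs with a name, 15 were lower on FH than on MH at an adjusted p under 0.01 and 4 were higher, against 22.0% and 26.9% of all isotigs. The median difference of the 28 was -0.46 on the log2 scale, against 0.02 over all isotigs. Cytochrome P450 monooxygenase paxillus_2772 differed most, with 10.42, 10.27 and 10.40 on FH, 10.20, 10.14 and 10.20 on MMN and a change of 1.53 on MH (difference -1.34, adjusted p = 9.2e-11). Phenylalanine ammonia lyase paxillus_5485 had a difference of -1.04 and tyrosinase paxillus_984 one of -1.004, both past 2-fold. The 4 that were higher on FH were tyrosinase paxillus_222, laccases paxillus_3450 and paxillus_3452 and citrate synthase paxillus_3047, by 0.23, 0.37, 0.42 and 0.23. Glyoxal oxidases, the iron permease, the GH9 endoglucanase, the aromatic peroxygenase, laccases paxillus_7916 and paxillus_4041, citrate synthase paxillus_5649 and the P450 isotig paxillus_3631 did not pass the test between FH and MH, which does not show that they responded alike.

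Isotigs with adjacent numbers can come from 1 gene, so the number of calls may overstate the number of genes. Which isotigs share a gene was not examined. The 118 rises formed 111 runs of consecutive numbers, 7 of them pairs, and the 37 falls formed 33 runs. Within 10 runs of more than 1 isotig the median range of the log2 difference was 0.12, and the pair paxillus_4980 and paxillus_4981, chosen after their values were seen, had 1.53 and 1.54. The widest range, 1.17, was that of paxillus_1843, paxillus_1844 and paxillus_1845, which fell by 2.04, 1.03 and 2.20 on the log2 scale. Over 11427 pairs of consecutive isotigs the differences had Pearson r = 0.25 across isotigs, and over 11410 pairs with numbers 10 apart r = 0.16.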

How the data were processed

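The authors hybridised Cy3-labelled cDNA of each culture to 1 subarray of a NimbleGen 12-plex slide and deposited log2 expression values from RMA (which corrects background, equalises arrays and summarises an isotig's probes, 10 for 12203 of 12214 isotigs). RMA is named in the submitters' processing notes. The labels give neither its version nor the base of the logarithm. The deposited series table held the same values (largest difference 0). The row of random control probes stayed out of the fits.

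Fits used limma 3.58.1 (lmFit, eBayes) in R 4.3.3 on 18 arrays with 6 group means, leaving 12 residual degrees of freedom (prior 5.35). Precision is limited by the number of arrays, and the median standard error was 0.07 on the log2 scale. The fit was checked on simulated data with known changes. Their noise was independent between arrays, with the same spread for an isotig in all media. The check therefore does not cover the larger spread on MMN or the MMN deviations shared by replicate number. The reference table for this strain names genes by locus tag, which the isotig numbers do not match.

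Named isotigs are the 28 with an enzyme name from the study, the 12 largest rises and falls among calls with separate groups, the 4 calls furthest above and below MH, and up to 5 calls each way that differed from all other media. Members and lists were chosen with earlier results of these data known. Alternatives covered the samples in the fit, the thresholds, the control arrays, normalization, dim isotigs, the variance prior, a replicate block and leaving out each array.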

Additional observations from a re-analysis of the deposited data

Results flagged for a closer look

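A test of the difference between media found that the change on FH differed from that on another medium by over 2-fold for 23 of the 56 named isotigs. Of these, 10 had been named by a rule on their difference from other media. The rest had been named for an extreme change on FH or by the study for rises on these arrays. The count is therefore partly fixed by the choice for all of them. Over all isotigs 0.0491% to 0.786% were called in each contrast and direction. The 23 count a call in any contrast or direction, so those shares are not a like measure. Each value is a change on FH minus a change on the other medium, on the log2 scale, and is the largest such difference of the isotig. Above MC stood paxillus_5854 by 2.96, paxillus_558 by 2.66, paxillus_4580 by 2.51, paxillus_3701 by 1.86 and paxillus_3370 by 1.61. Below MC stood paxillus_9966 at -2.15, cytochrome P450 monooxygenases paxillus_2772 at -1.64, paxillus_3633 at -1.27 and paxillus_3631 at -1.07, phenylalanine ammonia lyase paxillus_5485 at -1.18 and aromatic peroxygenase paxillus_10214 at -1.01. Above MH stood paxillus_4034 by 2.63, paxillus_4036 by 2.55 and paxillus_5071 by 2.14, and below MH paxillus_5498 at -1.24, paxillus_8833 at -1.10, paxillus_13376 at -1.05 and tyrosinase paxillus_984 at -1.004. Against CMC, tyrosinases paxillus_1195 and paxillus_222 stood above by 1.501 and 1.24, and paxillus_446, paxillus_6761 and paxillus_323 below at -1.64, -1.55 and -1.02. MC and CMC lie on the other slide, and each was set against the MMN arrays of its own slide.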

How the results depend on the processing

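Of 1581 values of the 56 named isotigs under 32 alternatives, 1549 kept their direction and their side of the thresholds, 19 lost a call, 11 gained one and 2 changed sign. The 2 were both tyrosinase paxillus_984, which was not called: -0.019 without MMN replicate 3 and -0.043 without FH replicate 1, in a range of -0.043 to 0.097 as single arrays were left out. The values covered the change on FH against MMN for all 56 isotigs. Differences of single isotigs between media were varied only for those named by a rule on such a difference. Other flagged differences, such as that of paxillus_984 from MH at -1.004, were not varied. Counting runs of numbers once gave no values for single isotigs. The number of isotigs called higher was 118 and lower 37. A test against 2-fold itself (limma's treat) called 33 higher and 22 lower, with 3 of the 28 named enzymes against 10. The 2-fold threshold read on a natural logarithm gave 368 and 76, with 15 named enzymes. These then included GH9 endoglucanase paxillus_6851 and glyoxal oxidases paxillus_3881 and paxillus_3882. With the MMN arrays of the other slide as the control 138 were called higher and 56 lower. Of these, 100 rises and 35 falls were shared with the 118 and 37, so the set of calls depends on the control arrays. At the adjusted p alone, 2014 isotigs were higher and 2065 lower on FH in the fit of 18 arrays, 1623 and 1275 in that of the groups compared, 1750 and 1306 on slide 1 alone, and 2606 and 3495 at an adjusted p under 0.05. Without dim isotigs 58 were called lower than on MH, against 90.

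Leaving out 1 array gave 101 to 144 isotigs higher and 34 to 39 lower on FH, 1582 to 2019 and 1237 to 1984 at the p alone, and 9 to 12 named enzymes. The falls at the p alone were 1248, 1290 and 1237 without MMN replicate 1, MMN replicate 2 and FH replicate 1. Against MH the range was 45 to 51 higher and 78 to 109 lower, against MC 67 to 80 and 84 to 107, and against CMC 21 to 24 and 4 to 8. Runs of consecutive numbers counted once, an alternative chosen after seeing the data, left 111 and 33.

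FH and MMN share only replicate numbers: the deviations of same-numbered arrays correlated at -0.18, -0.03 and -0.04. A fit blocked on replicate number called 118 rises and 37 falls, the same isotigs.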
